A study of Mus musculus with 12 samples.

Results

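Interferon-stimulated genes were examined in the liver and brain of mice lacking Mettl5, the enzyme that places N6-methyladenosine on 18S ribosomal RNA. The list held 9 genes, Ifit1, Ifit3, Isg15, Irf7, Usp18, Rsad2, Oasl2, Ifi44 and Bst2, chosen by symbol among the 55487 genes of the count table, and each symbol matched a single row. Total RNA of 12 libraries had been sequenced, 1 from the liver and 1 from the brain of each of 6 mice that the labels letter A to F. Mice A, C and F were METTL5 KO and mice B, D and E were WT, which gave 4 groups (WT liver, KO liver, WT brain and KO brain) of 3 libraries each. The questions were how high these genes stood in each organ, whether KO and WT differed, and whether a mouse that was high in liver was also high in brain.

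The KO allele lacks the second exon of Mettl5, which was floxed in hybrid embryonic stem cells of 2 inbred strains and deleted throughout the body by crossing to a CMV-Cre strain, on a background backcrossed to B6. The labels list no treatment for any group, and the housing was pathogen-free. The labels call the controls WT, whereas legends of the study speak of heterozygous controls, in 3 pairs with KO mice, for the animals sequenced, so a control may have carried 1 KO allele. Which mice formed a pair is not given in the labels, and KO and WT were compared unpaired. Age, sex, litter and batch are not given in the labels. Separate animals are separate replicates here, and both libraries of a letter come from 1 animal.

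Total counts ran from 14403309 to 21623180 per library. The tissue labels were checked against defining markers: hepatocyte markers summed to between 78243 and 102452 CPM (counts scaled to library size) in liver and at most 300 CPM in brain, and neuronal markers to at least 1887 CPM in brain and at most 21.5 CPM in liver. Mettl5 itself stood at 19.0, 10.1 and 10.4 CPM in WT liver (mice B, D and E) and at 4.94, 4.64 and 5.23 CPM in KO liver (mice A, C and F). In brain it stood at 7.13, 4.66 and 3.96 CPM in WT and at 2.61, 3.12 and 3.0 CPM in KO. KO libraries were below WT libraries in both organs, in the direction of the labels, although neither difference passed the test (log2 fold change -1.44 in liver, adjusted p = 0.383, and -0.84 in brain, adjusted p = 0.373, edgeR quasi-likelihood test with Benjamini-Hochberg adjustment). Libraries of mice E (WT) and F (KO) held at most 20 counts over 4 Y-linked genes against at least 2112 in the other mice. Xist, the transcript of the inactive X chromosome, had 9446 to 19028 counts in mice E and F and at most 19 in the other mice. Mice E and F thus read as female and the other mice as male, with 1 female in each genotype. The mitochondrial ribosomal RNA share separated the genotypes as well. It was 7.36% to 8.66% in KO liver against 10.7% to 16.9% in WT liver, and 21.4% to 31.6% in KO brain against 7.63% to 17.7% in WT brain.

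Type I interferons bind a receptor made of Ifnar1 and Ifnar2, which signals through the kinases Jak1 and Tyk2 to transcription factors such as Stat2 and Irf9. These bind a short element in the promoters of interferon-stimulated genes, the interferon-stimulated response element, and a low tonic signal keeps many of these genes on in uninfected tissue. Among the 9 genes, Irf7 is a transcription factor that drives interferon genes, Ifit1 and Ifit3 bind viral RNA or each other, and Isg15 is a ubiquitin-like modifier that Usp18 removes from proteins. Rsad2 (viperin) is a radical enzyme that makes a chain-terminating nucleotide, Oasl2 belongs to the oligoadenylate synthetase family, Bst2 (tetherin) holds budding virions at the cell surface, and Ifi44 is an interferon-induced cytoplasmic protein.

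Promoter windows of 300 bases, from 250 before to 50 after the annotated start, were read from RefSeq on GRCm38.p6 for 8 of the 9 genes. They were searched on both strands for GAAA followed by any 2 bases and GAAA again, the core of the interferon-stimulated response element, and for TTCNNNGAA, the gamma-activated site. The first motif was found in 5 of the 8 windows (Ifit1, Ifit3, Isg15, Rsad2 and Bst2) and in 1131 of all 32851 windows of the table (3.44%). The second was found in 1 of the 8 (Bst2) and in 8.30% of all windows. The 5 windows with the first motif are shown because they hold the core of the element described above, and that of Irf7 because it is the window without a match from the gene whose liver and brain levels followed each other most closely. Capitals mark the matches of this motif or of its reverse complement, and all are written in the direction of the gene.
Ifit1 (chr19:34640639-34640938, plus strand): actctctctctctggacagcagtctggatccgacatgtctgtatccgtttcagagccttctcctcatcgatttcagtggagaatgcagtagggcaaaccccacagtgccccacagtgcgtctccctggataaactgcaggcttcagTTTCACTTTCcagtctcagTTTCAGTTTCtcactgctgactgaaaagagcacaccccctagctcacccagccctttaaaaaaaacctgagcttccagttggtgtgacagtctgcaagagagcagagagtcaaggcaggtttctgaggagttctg
Ifit3 (chr19:34583279-34583578, plus strand): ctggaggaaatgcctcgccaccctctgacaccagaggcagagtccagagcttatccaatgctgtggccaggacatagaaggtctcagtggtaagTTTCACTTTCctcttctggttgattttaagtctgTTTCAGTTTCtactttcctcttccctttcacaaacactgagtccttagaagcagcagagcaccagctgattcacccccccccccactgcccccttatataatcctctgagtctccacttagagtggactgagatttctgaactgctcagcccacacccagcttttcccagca
Isg15 (chr4:156200769-156201068, minus strand): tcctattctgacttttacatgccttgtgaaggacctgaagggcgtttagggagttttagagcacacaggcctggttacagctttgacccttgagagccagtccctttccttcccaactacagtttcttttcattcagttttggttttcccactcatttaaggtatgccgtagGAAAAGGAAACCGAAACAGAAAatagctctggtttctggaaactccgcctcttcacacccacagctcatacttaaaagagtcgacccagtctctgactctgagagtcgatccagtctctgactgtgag
Rsad2 (chr12:26456403-26456702, minus strand): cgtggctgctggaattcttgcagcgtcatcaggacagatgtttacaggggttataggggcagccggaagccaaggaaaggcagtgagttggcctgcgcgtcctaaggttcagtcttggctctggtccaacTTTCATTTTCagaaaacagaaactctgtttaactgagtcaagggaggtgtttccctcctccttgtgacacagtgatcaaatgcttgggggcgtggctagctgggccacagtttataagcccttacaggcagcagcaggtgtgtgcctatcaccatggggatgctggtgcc
Bst2 (chr8:71537423-71537722, minus strand): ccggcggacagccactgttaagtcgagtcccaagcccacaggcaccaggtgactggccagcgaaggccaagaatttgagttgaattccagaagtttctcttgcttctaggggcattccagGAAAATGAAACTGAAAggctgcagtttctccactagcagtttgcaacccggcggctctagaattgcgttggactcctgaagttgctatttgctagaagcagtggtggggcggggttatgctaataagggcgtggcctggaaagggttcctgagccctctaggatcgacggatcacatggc
Irf7 (chr7:141266375-141266674, minus strand): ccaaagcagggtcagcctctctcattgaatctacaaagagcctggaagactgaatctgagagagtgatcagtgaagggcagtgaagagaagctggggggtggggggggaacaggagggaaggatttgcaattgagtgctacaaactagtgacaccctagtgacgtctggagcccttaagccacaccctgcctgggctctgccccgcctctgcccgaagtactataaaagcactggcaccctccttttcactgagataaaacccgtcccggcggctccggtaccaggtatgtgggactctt

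Isg15 held 3 overlapping matches, in 1 unbroken run that began 78 bases before the start, and only 5 windows of the whole table (0.0152%) held as many. Ifit1, Ifit3 and Bst2 held 2 matches each and Rsad2 held 1, while 74 windows of the table (0.225%) held 2 or more. The pair in Ifit1 and the pair in Ifit3 were the same 2 sequences, TTTCACTTTC and TTTCAGTTTC, lying 104 and 85 bases before the start in Ifit1 and 156 and 122 bases in Ifit3. A match is a description of these letters and was not tied to binding in these tissues.

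All 9 genes had a higher mean level in liver than in brain. Isg15, Ifi44 and Bst2 passed the filter on low counts only through liver, where they were high, so they had to differ, and their levels are given below as a description with no test between organs. Over the other 6 genes, which passed it in both organs, the gap ran from 31.3-fold for Irf7 to 1.57-fold for Ifit3. These 6 were all called at an adjusted p under 0.1 with edgeR, against 37.9% of the 18944 genes tested that were called higher in liver and 84.9% that were called in either direction. The median log2 fold change was 2.35 over these 6 genes and -0.22 over all genes tested. Every liver library lay above every brain library for 3 of the 6 (Irf7, Usp18 and Rsad2), as it did for 29.0% of all genes. The 9 panels of levels by library show these gaps gene by gene.

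**Figure D1:**
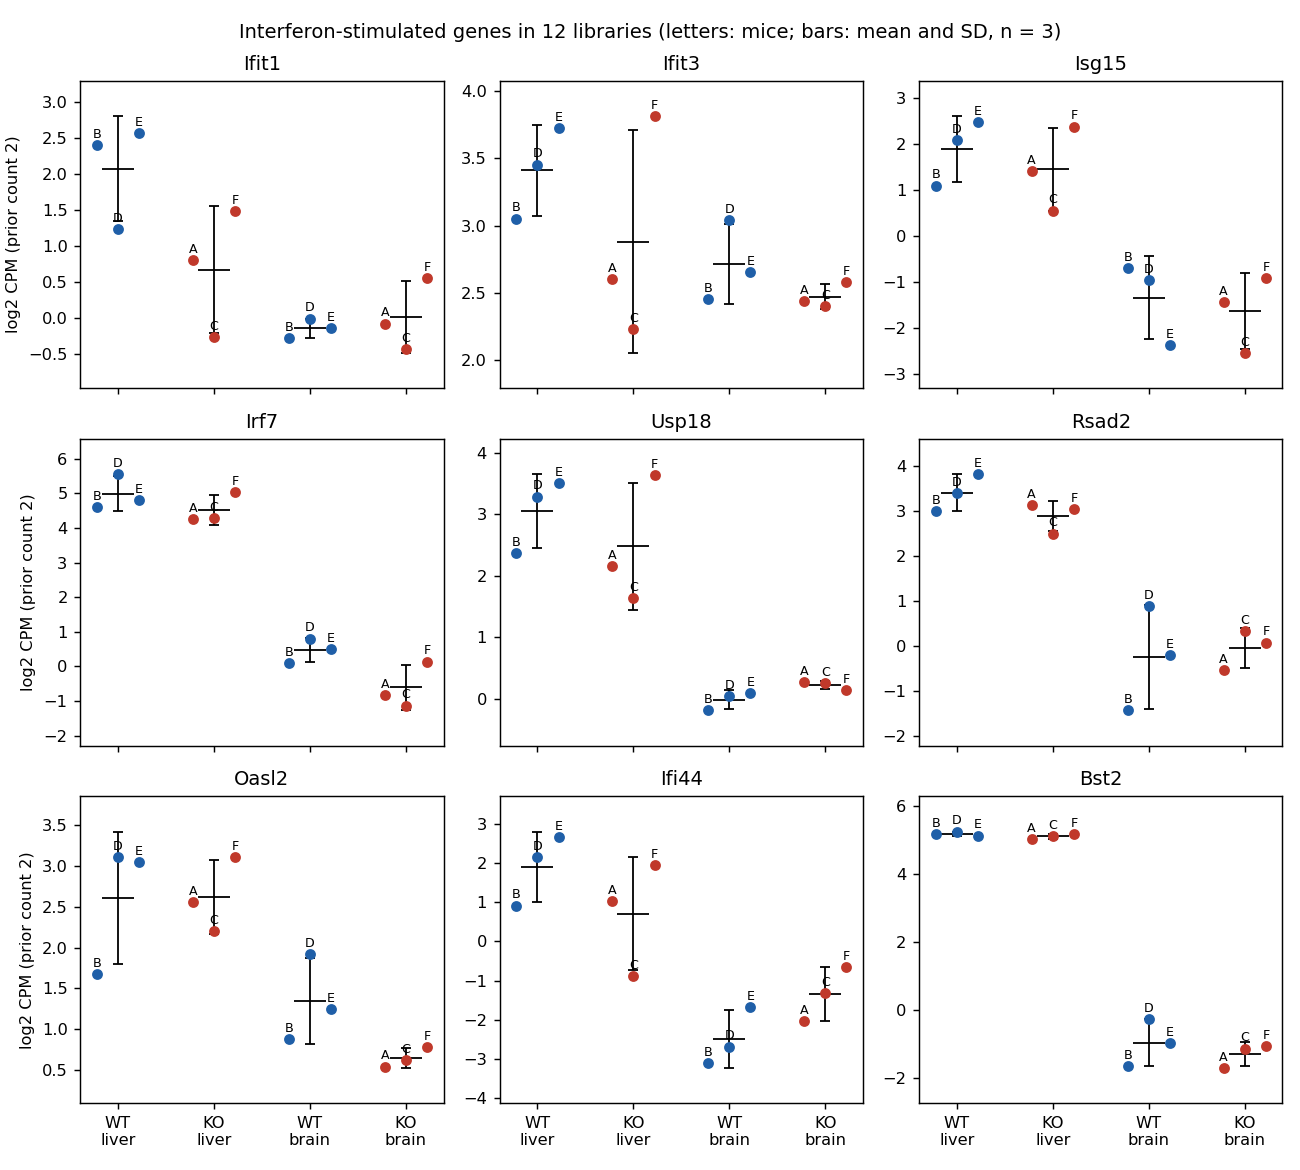
Level of each gene (y axis, log2 CPM with a prior count of 2) in the 4 groups of 3 libraries (x axis), with WT in blue, KO in red, letters naming the mice and bars giving the mean and SD. Bst2 sits between 32.7 and 37.9 CPM in all liver libraries and at or below 0.716 CPM in all brain libraries, while the liver and brain points of Ifit3 overlap.

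Bst2 (ENSMUSG00000046718.8, chr8:71534255-71537456, minus strand) was high and even in liver and near 0 in brain. In liver it measured 36.2, 37.9 and 34.9 CPM in WT mice B, D and E and 32.7, 34.7 and 36.1 CPM in KO mice A, C and F. In brain the values were 0.202, 0.716 and 0.396 CPM in WT and 0.191, 0.340 and 0.363 CPM in KO, from 3 to 18 counts per library. The liver libraries were nearly level, with 1.16-fold between the highest and the lowest, and every one lay above every brain library.

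Irf7 (ENSMUSG00000025498.15, chr7:141262706-141266481, minus strand) showed the widest gap of the 6 genes tested between organs. It measured 24.3, 47.1 and 27.8 CPM in WT liver (mice B, D and E) and 19.1, 19.4 and 32.7 CPM in KO liver (mice A, C and F). Brain values were 0.961, 1.63 and 1.31 CPM in WT and 0.446, 0.340 and 0.984 CPM in KO. Mouse D was the highest in both organs and mice A and C were the lowest in both. The gap between organs was 31.3-fold (log2 fold change 4.97 ± 0.28 SE, adjusted p = 4.44e-10).

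The modifier Isg15 (ENSMUSG00000035692.7, chr4:156199455-156200796, minus strand) measured 2.03, 4.14 and 5.47 CPM in WT liver and 2.55, 1.36 and 5.09 CPM in KO liver. In brain it was close to the detection limit, at 0.506, 0.398 and 0.0792 CPM in WT and 0.255, 0.0567 and 0.414 CPM in KO, which were 1 to 10 counts. The protease that removes it, Usp18 (ENSMUSG00000030107.10, chr6:121245906-121270917, plus strand), measured 5.04, 9.64 and 11.2 CPM in WT liver and 4.32, 3.0 and 12.3 CPM in KO liver. Brain values of Usp18 were narrow, at 0.758, 0.915 and 0.950 CPM in WT and 1.08, 1.08 and 0.984 CPM in KO, and the organs differed by 2.96 ± 0.35 SE on the log2 scale (adjusted p = 1.81e-06). For both genes mice E and F were the highest livers, 1 WT and 1 KO, and mouse C was the lowest.

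The enzyme genes differed in the size of their gap. Rsad2 (ENSMUSG00000020641.16, chr12:26442746-26456452, minus strand) measured 7.79, 10.4 and 13.9 CPM in WT liver and 8.57, 5.50 and 8.04 CPM in KO liver, against 0.253, 1.71 and 0.752 CPM in WT brain and 0.574, 1.13 and 0.932 CPM in KO brain. Oasl2 (ENSMUSG00000029561.17, chr5:114896936-114912234, plus strand) measured 3.08, 8.53 and 8.16 CPM in WT liver and 5.79, 4.50 and 8.51 CPM in KO liver, against 1.72, 3.66 and 2.26 CPM in WT brain and 1.34, 1.42 and 1.61 CPM in KO brain. The log2 fold changes between organs were 3.28 ± 0.34 SE for Rsad2 (adjusted p = 5.01e-07) and 1.73 ± 0.29 SE for Oasl2 (adjusted p = 6.28e-05). Mouse B was the lowest liver for Oasl2 and the lowest brain for Rsad2.

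Ifi44 (ENSMUSG00000028037.13, chr3:151730922-151749960, minus strand) varied most among livers, at 1.77, 4.30 and 6.18 CPM in WT and 1.93, 0.429 and 3.75 CPM in KO, a 14.4-fold range. In brain it had at most 10 counts, giving 0.0398 and 0.198 CPM in WT mice D and E and 0.128, 0.284 and 0.518 CPM in KO. WT brain of mouse B had no count, which allows a level of up to 0.152 CPM, a limit that covers counting error only.

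Ifit3 showed the narrowest gap of the 6, and the gap of Ifit1 could not be ordered against that of Oasl2 within their SEs. Ifit1 (ENSMUSG00000034459.8, chr19:34640871-34650009, plus strand) measured 5.17, 2.23 and 5.82 CPM in WT liver and 1.62, 0.714 and 2.68 CPM in KO liver, against 0.708, 0.876 and 0.792 CPM in WT brain and 0.829, 0.624 and 1.35 CPM in KO brain. Ifit3 (ENSMUSG00000074896.3, chr19:34583531-34588731, plus strand) measured 8.18, 10.8 and 13.1 CPM in WT liver and 5.94, 4.57 and 13.9 CPM in KO liver, against 5.36, 8.12 and 6.18 CPM in WT brain and 5.29, 5.16 and 5.85 CPM in KO brain. Liver exceeded brain of the same mouse in 6 of 6 mice for Ifit1 (log2 fold change 1.65 ± 0.35 SE, adjusted p = 5.22e-04) and in 5 of 6 for Ifit3 (0.65 ± 0.24 SE, adjusted p = 0.0246). Irf7, Usp18, Rsad2 and Oasl2 were higher in liver in 6 of 6 mice too, as were 32.9% of all genes. The exception was mouse C, whose Ifit3 was 0.17 lower in liver on the log2 scale. The Ifit3 call was lost without mouse F (log2 fold change 0.36, adjusted p = 0.116) and without mice E and F (0.26, adjusted p = 0.307). Of the 100-base stretches of Ifit3, 31.7% occur also in its neighbour Ifit3b, so reads within these cannot be assigned to 1 gene and Ifit3 values are uncertain to that extent. Ifit3b itself measured 3.39 ± 1.77 CPM (SD, n = 3) in WT liver, 1.81 ± 1.4 in KO liver, 4.23 ± 0.939 in WT brain and 2.84 ± 0.486 in KO brain.

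Divided by exon length, Bst2 led in liver at 39.2 ± 1.97 CPM per kilobase (SD, n = 6 mice). Irf7 (7.52 ± 2.79), Ifit3 (5.41 ± 2.19) and Isg15 (4.89 ± 2.42) followed with spreads that overlapped, then Usp18 (2.72 ± 1.42), Rsad2 (2.08 ± 0.659), Ifit1 (1.14 ± 0.762), Oasl2 (1.01 ± 0.365) and Ifi44 (0.499 ± 0.339), where again neighbours overlapped. In brain the first place belonged to Ifit3 at 3.43 ± 0.636 CPM per kilobase. The next 7 genes lay between 0.408 ± 0.211 (Bst2) and 0.206 ± 0.116 (Rsad2) and could not be ordered within their spreads, and Ifi44 was last at 0.0317 ± 0.0309. Irf7, in the second place in liver, was among those 7 in brain.

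The rest of the pathway was counted from lists of 108 genes. None of the 13 interferon ligands listed, among them Ifnb1 and Ifng, had more than 3 counts in any library, and 11 had none in all 12. Between organs, calls were counted over the genes that passed the filter in both. Of all 18944 genes tested, including those that passed through 1 organ only, 37.9% were called higher in liver and 47.0% lower. Of the receptor and signalling genes 10 of 12 were called higher in liver and 2 lower. The receptor chain Ifnar2 stood at 37.6 ± 3.24 CPM in WT liver and 4.43 ± 0.484 CPM in WT brain (log2 fold change 3.31 ± 0.11 SE, adjusted p = 1.35e-12), and Ifnar1 at 53.3 ± 5.33 and 25.1 ± 1.18 CPM (1.02 ± 0.10 SE, adjusted p = 1.98e-07). Of the sensors and adaptors 9 of 11 were called higher in liver and none lower. Of the other interferon-induced genes 28 of 32 were called higher and 3 lower, and of the interferon gamma and antigen presentation genes 15 of 15 were called higher. Ifitm3, which restricts virus entry, had the smallest p (log2 fold change 6.58 ± 0.17 SE, adjusted p = 1.70e-13), and the RNA-editing enzyme Adar (-1.17 ± 0.12 SE, adjusted p = 5.24e-07) and the nucleotide kinase Cmpk2 (-0.73 ± 0.20 SE, adjusted p = 0.00356) fell. Macrophage markers differed between the organs as well. Those of Kupffer cells and macrophages summed to 214 to 462 CPM in liver and 20.5 to 35.1 CPM in brain, where 4 of the 7 markers had 3 counts or fewer in each genotype. The other 3 passed the filter in both organs, and all 3 were called higher in liver. Those of microglia, the macrophages of the brain, summed to 85.0 to 220 CPM in liver and 91.4 to 121 CPM in brain, with 2 of the 5 that passed the filter in both organs called higher and 3 lower in liver. The part of these cells in the gap was not tested. In bulk tissue, fewer cells of a type and less RNA per cell cannot be told apart.

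KO and WT livers were compared next. All 9 genes had a lower mean level in KO, but none was called, and the libraries of the 2 genotypes overlapped for every gene, while KO lay wholly below WT for 5.18% of all genes. With edgeR 0 of 9 genes passed an adjusted p of 0.1, as did 0.0% of the 14075 genes tested, 1 of 9 had an unadjusted p under 0.05 (4.57% of all genes were lower at that level), and DESeq2 also called 0 of 9, with 1 at an unadjusted p under 0.05. The median log2 fold change was -0.42 over the 9 genes and -0.0024 over all genes tested, of which 50.4% lay below 0. The 9 signs are not separate observations, because the genes rose and fell together among the livers as described later. The plot of KO against WT changes places every liver estimate below 0 and shows the width of the errors.

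**Figure D2:**
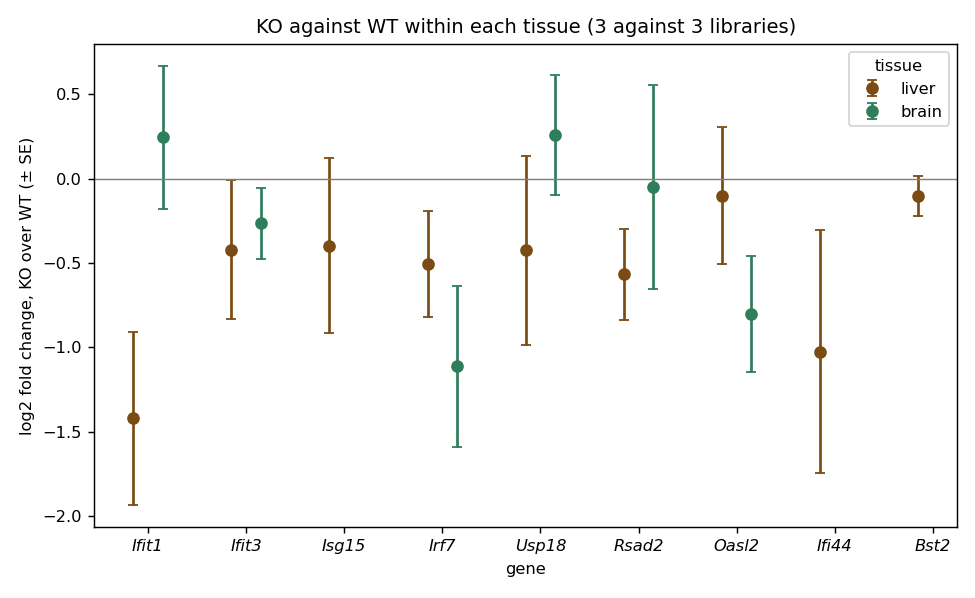
Log2 fold change of KO over WT (y axis, points with SE bars) for each gene (x axis) in liver (brown) and brain (green), from 3 against 3 libraries per tissue. Liver estimates lie between -1.42 and -0.10, brain estimates fall on both sides of 0, and Isg15, Ifi44 and Bst2 have no brain point because their counts there were below the filter.

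Ifit1 had the smallest p of the 9 in liver. Its values in KO mice A, C and F, 1.62, 0.714 and 2.68 CPM, lay below WT mice B and E and straddled the 2.23 CPM of WT mouse D (log2 fold change -1.42 ± 0.51 SE, unadjusted p = 0.0217, adjusted p = 0.560 with edgeR). It was called only when no filter on low counts was applied (adjusted p = 0.0265). Ifi44 came next in size (-1.02 ± 0.72 SE, adjusted p = 0.835), and here KO mouse C alone, at 6 counts, was the low library. Rsad2 (-0.57 ± 0.27 SE, adjusted p = 0.709) and Irf7 (-0.51 ± 0.31 SE, adjusted p = 0.797) had smaller differences. Usp18, Ifit3 and Isg15 lay between -0.42 and -0.40 with adjusted p of at least 0.886, and for these genes KO mouse F was the highest or second highest of all 6 livers. Oasl2 and Bst2 both had -0.10, with an SE of 0.41 and 0.12. Without KO mouse F, 5 of the 9 genes had an unadjusted p under 0.05 (Ifit1, Ifit3, Irf7, Usp18 and Ifi44), all lower in KO, as were 5.31% of all genes in that fit, none was called, and the median log2 fold change was -1.02. The median was -0.14 without KO mouse C, -0.70 without WT mouse B, -0.25 without WT mouse E and -0.87 without mice E and F, so the size of the difference rested on which mice of either genotype were included.

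Markers of Kupffer cells and macrophages moved beside these values. Their sum was 291, 462 and 341 CPM in WT livers (mice B, D and E) and 219, 214 and 417 CPM in KO livers (mice A, C and F), and the 7 markers had a median log2 fold change of -0.38 with none called. B and T lymphocyte markers summed to 2.03, 7.57 and 5.75 CPM in WT and 3.32, 2.79 and 4.15 CPM in KO. The genotypes overlapped for the other immune lists too, with plasmacytoid dendritic cell markers at 0.558 to 1.70 CPM in WT and 1.0 to 1.41 CPM in KO, neutrophil markers at most 0.568 CPM in any liver, and microglia markers at 105 to 184 CPM in WT and 85.0 to 220 CPM in KO. The part of these cells and of the mitochondrial RNA share in the liver values was not tested. For Y-linked status, the fit without mice E and F is given above, and 1 further edgeR fit held this status as a term. In that further fit 3 of 9 genes (Ifit1, Ifit3 and Rsad2) were lower at an unadjusted p under 0.05, as were 7.33% of all genes, and none was called.

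In brain, 6 of the 9 genes passed the filter on low counts, and none was called. Isg15, Ifi44 and Bst2 were below the filter, with at most 10, 10 and 18 counts. Of the 17188 genes tested in brain 0.064% were called. With edgeR 0 of 6 genes passed, 2 of 6 were lower at an unadjusted p under 0.05 (5.01% of all genes), and DESeq2, which applied no filter, called 0 of 9 with 0 at an unadjusted p under 0.05. The median log2 fold change was -0.16 over the 6 genes.

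Oasl2 and Irf7 had the smallest p-values in brain, both with a lower mean in KO. KO brain values of Oasl2, 1.34 to 1.61 CPM, all lay below the WT values of 1.72 to 3.66 CPM (log2 fold change -0.80 ± 0.34 SE, adjusted p = 0.442 with edgeR), a separation seen in 7.95% of all genes tested. For Irf7, KO mouse F at 0.984 CPM stood just above WT mouse B at 0.961 CPM (-1.11 ± 0.48 SE, adjusted p = 0.441). For Usp18 the KO brains were all above the WT brains (0.26 ± 0.36 SE, adjusted p = 0.783), at 15 to 24 counts per library, where 8.42% of all genes separated in that direction. Ifit1 (0.25 ± 0.42 SE), Ifit3 (-0.27 ± 0.21 SE) and Rsad2 (-0.05 ± 0.61 SE) did not approach the threshold (adjusted p of at least 0.631). The mitochondrial ribosomal RNA share, higher in every KO brain than in every WT brain, moved with these values. So did the sum of the 6 hepatocyte markers, at 204, 300 and 166 CPM in WT brains (mice B, D and E) and 87.8, 137 and 124 CPM in KO brains (mice A, C and F). Their median log2 fold change was -0.65 over the 5 tested, with none called. The albumin gene Alb, 1 of the 6, overlapped between genotypes, at 158, 485 and 224 raw counts in WT brains and 136, 135 and 206 in KO brains. The sum was therefore not read as liver RNA in the brain libraries. The part of this sum and of the mitochondrial share was not tested.

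The genotype difference was then compared between organs. It is given for the 6 genes that passed the filter in both organs, since Isg15, Ifi44 and Bst2 have too few brain counts for a brain difference. None of the 6 passed the test of the liver difference minus the brain difference, and 0.0% of the 18944 genes did. With edgeR, 1 of 6 had an unadjusted p under 0.05, Ifit1 (-1.63 ± 0.69 SE, adjusted p = 0.432), against 10.6% of all genes, and DESeq2 called 0 of 6 with the same gene under 0.05. With the mouse as a block 0 of the 6 and 68 of all genes were called. The rest of the pathway gave no call in any of these 3 comparisons either. In liver, 34 of 46 other interferon-induced genes and 16 of 20 interferon gamma and antigen presentation genes had a log2 fold change below 0, with medians of -0.25 and -0.22, beside 50.4% of all genes. Of the sensors and adaptors 9 of 12 were below 0 (median -0.09), and of the receptor and signalling genes 6 of 12 (median 0.02). In brain 16 of 33 other interferon-induced genes (median 0.0040) and 6 of 15 interferon gamma and antigen presentation genes (median 0.09) were below 0. So were 8 of 11 sensors and adaptors (median -0.35) and 8 of 12 receptor and signalling genes (median -0.13). The median over all 17188 genes tested in brain was -0.0016. The genes of a list were measured in the same libraries, so these counts of signs, in liver and in brain, are not of separate observations and were not tested. The smallest p in liver was that of Eif2ak2, the double-stranded RNA kinase PKR, at 33.7 ± 3.29 CPM in WT liver and 21.2 ± 2.39 CPM in KO liver (-0.70 ± 0.14 SE, adjusted p = 0.383), and in brain that of Stat2 at 17.2 ± 1.34 and 9.30 ± 2.06 CPM (-0.88 ± 0.19 SE, adjusted p = 0.320). Both are n = 3 libraries per group with SD. Eif2ak2 stood at 5.95 ± 0.237 CPM in WT brain and 7.96 ± 0.837 CPM in KO brain, and its liver difference minus its brain difference had the smallest p of the lists (-1.09 ± 0.22 SE, adjusted p = 0.132), which did not pass.

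The livers differed from each other along 1 direction shared by most of the genes. All 36 pairs of the 9 genes were positively correlated over the 6 livers, with a median r of 0.710 beside a median of 0.004 over all pairs of the genes tested. The highest was 0.984, for Ifit3 and Usp18, and the lowest 0.0763, for Ifit1 and Oasl2. Bst2, the gene with the flat liver levels, had the weakest ties (median r of 0.330 with the other 8) and Isg15 the strongest (0.831). In brain the 15 pairs of the 6 genes above the filter had a median r of 0.281, 12 were above 0, and they ran from -0.605 for Irf7 and Usp18 to 0.964 for Ifit3 and Oasl2. The correlations are a description over 6 libraries.

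**Figure D3:**
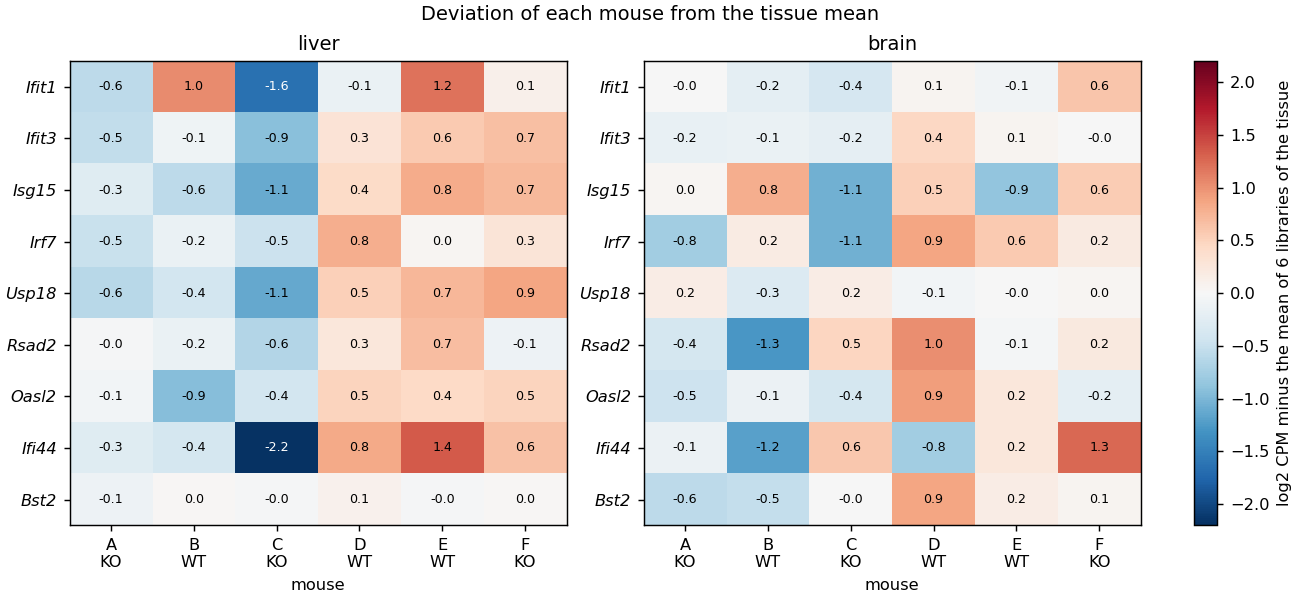
Deviation of each mouse (columns, with genotype) from the mean of the 6 libraries of its tissue, in log2 CPM, for each gene (rows) in liver (left) and brain (right), red above and blue below the mean. In liver the columns of mice D, E and F are above the mean for 8 of 9 genes each and those of A and C are below for all 9, while the brain columns are mixed.

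Averaged over the 9 genes as a deviation from the tissue mean, the order of the livers was E (0.65 on the log2 scale), F (0.41), D (0.40), B (-0.18), A (-0.33) and C (-0.95). The order of the brains was D (0.43), F (0.30), E (0.03), C (-0.20), A (-0.25) and B (-0.31). Mice D, E and F, which include both genotypes, were thus above the mean and mice A, B and C below it in both organs. Mouse E was close to the mean in brain, with 5 of the 9 genes above it and 3 of the 6 that passed the filter in both organs. The brain mean over 9 genes includes Isg15, Ifi44 and Bst2, which were below the filter there. Over the 6 genes that passed the filter in both organs the same 3 mice were above, with D at 0.37 and 0.54, E at 0.61 and 0.13 and F at 0.39 and 0.14 in liver and brain. Mouse D was the highest brain for 5 of the 9 genes (Ifit3, Irf7, Rsad2, Oasl2 and Bst2). Mouse C was the lowest liver for 6 of 9 genes. Mice E and F are those that read as female, and mouse D reads as male.

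Gene by gene, the tie between liver and brain of the same mouse was uneven. Irf7 had the closest, with r = 0.875 over the 6 mice (exact permutation p = 0.0194, rho = 0.886 with exact permutation p = 0.0333). The adjusted p over 12574 genes was 0.867, so it did not pass, and the smallest over all genes was 0.848. The r was between 0.836 and 0.927 when each mouse was left out in turn, 0.809 without the 2 mice farthest from the median liver level, A and D, and 0.885 with each value centred on its genotype mean. Ifit3 (r = 0.576) fell to 0.179 without mice A and C and rose to 0.923 without mouse D, so its value rested on single mice, and Oasl2 had r = 0.498. Ifit1 (0.206), Rsad2 (0.0558) and Usp18 (-0.232) had lower values. Brain counts were low for these 3 genes (5 to 43 per library) and equally so for Irf7 (6 to 41). Without the 2 mice farthest from the median liver level, r was 0.649 for Oasl2 (without B and C), -0.272 for Ifit1 and 0.820 for Rsad2 (both without C and E) and -0.0149 for Usp18 (without C and F). Leaving out 1 mouse took Usp18 to -0.861 (without B) and Ifit1 to -0.367 (without C), so for Ifit1, Rsad2 and Usp18 the value rested on single mice or pairs of mice. Of the 6 genes 5 had an r above 0, against 42.9% of all genes, and 1 had an exact permutation p under 0.05 with r above 0, against 1.96%. The median r was 0.352 over the 6 genes and -0.0999 over all 12574, and after centring on genotype 0.509 and -0.0396. Within mice with and without Y-linked transcripts there were 4 and 2 animals, too few for a value of r. The scatter of liver against brain by mouse shows mice A and C at the low end of Irf7.

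**Figure D4:**
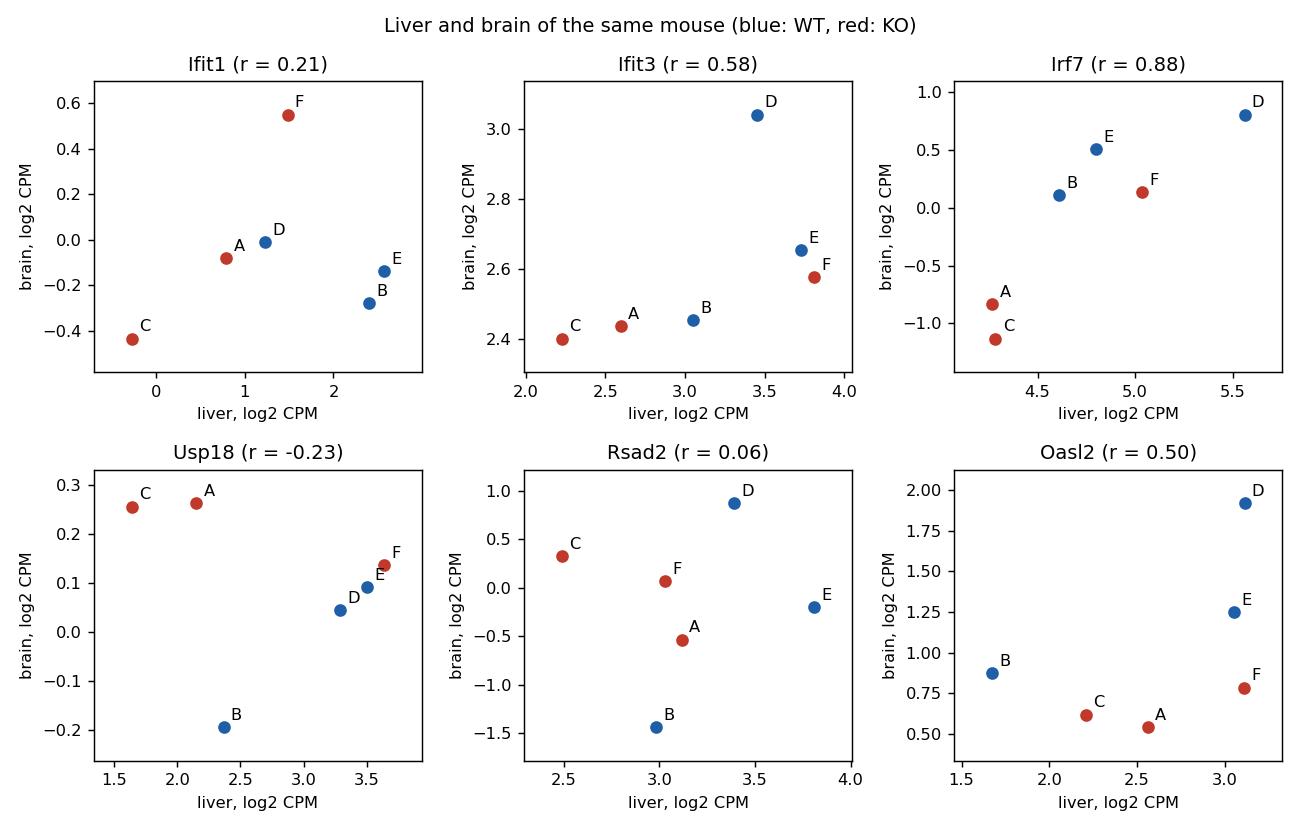
Brain level (y axis) against liver level (x axis) in log2 CPM of the same mouse for the 6 genes that passed the filter in both tissues, 1 point per mouse, WT in blue and KO in red. Irf7 rises from mice A and C to mouse D (r = 0.875), whereas Usp18 shows no such order (r = -0.232).

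Some immune cell markers followed the order of the mice in liver and others did not. The summed Kupffer cell and macrophage markers ran D, F, E, B, A and C from 462 down to 214 CPM, and B and T lymphocyte markers ran D, E, F, A, C and B from 7.57 down to 2.03 CPM. In both of these lists the first 3 mice were those with the highest means over the 9 genes. Among the 7 macrophage markers the first 3 mice were D, E and F for Csf1r, Clec4f, Vsig4 and Cd5l, whereas mouse B stood above mouse E for Timd4, Adgre1 and Cd68. Microglia markers in liver ran F, E, D, B, C and A, from 220 to 85.0 CPM, so D, E and F came first there too. Among the 6 microglia markers, only Csf1r by itself had these 3 mice first. Plasmacytoid dendritic cell markers ran E, F, A, B, C and D, from 1.70 to 0.558 CPM, and neutrophil markers E, D, A, F, B and C, from 0.568 to 0.143 CPM. In brain the microglia markers ran C, D, E, A, F and B, from 121 to 91.4 CPM, an order other than that of the 9 genes. The lymphocyte list in brain summed to at most 0.955 CPM with 2 of 9 markers at 0 in every brain library. The part of these cells in the order of the mice was not tested.

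**Figure D5:**
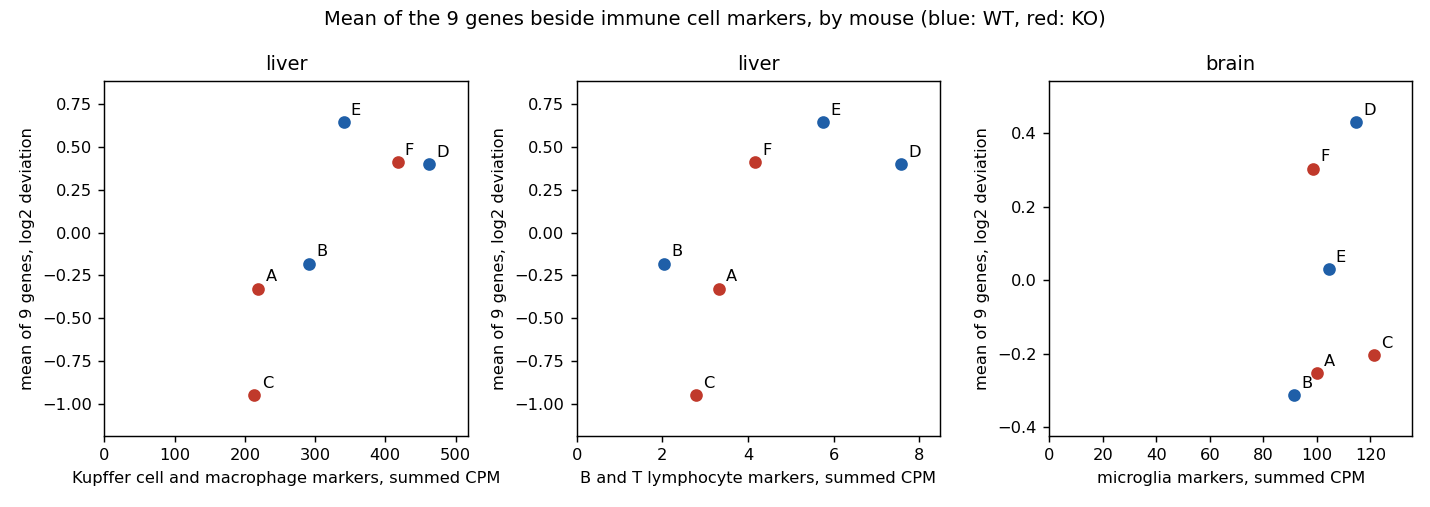
Mean deviation of the 9 genes from the tissue mean (y axis, log2) against the summed CPM of Kupffer cell and macrophage markers in liver (left), B and T lymphocyte markers in liver (middle) and microglia markers in brain (right), 1 point per mouse, WT in blue and KO in red. In both liver panels mice D, E and F lie to the upper right, with macrophage sums of at least 341 CPM, while the brain points show no such order.

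The genes whose pattern was most like the mean of the list were sought by the correlation of log2 CPM, centred on each tissue, over the 12 libraries among 12568 other genes. The 10 closest were Igtp (r = 0.938), Snx12 (0.906), Rfx5 (0.903), Ddx60 (0.884), Gbp2 (0.878), Sh3bgrl3 (0.874), Mmd2 (0.861), Cnbd2 (0.856), Ifit3b (0.855) and Ppm1h (0.854). Of these, 4 were in the pathway lists. With values centred on genotype as well, Rfx5, Igtp and Ddx60 ranked 1, 2 and 8 and the other 7 fell outside the first 10, with Gbp2 at 47, Ppm1h at 89 and Ifit3b at 116. Igtp and Gbp2 are interferon-inducible GTPases, Ddx60 is an interferon-induced helicase, and Rfx5, outside the lists, is a transcription factor of class II antigen presentation genes. Ifit3b shares sequence with Ifit3, as given above, and the part of this in its rank was not tested.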

How the data were processed

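Liver and brain total RNA had been sequenced as stranded single-end libraries. Per the labels and methods, reads passed through Trimmomatic and STAR 2.7.3a (mm10), and the authors deposited raw counts per gene from featureCounts, with no normalization. Stranded counting keeps genes on opposite strands, such as Irf7 and Phrf1, apart. The deposited counts were analysed here in R 4.3.3 with edgeR 4.0.16 (TMM scaling, filterByExpr, robust quasi-likelihood test, Benjamini-Hochberg adjustment over all genes tested, call at an adjusted p under 0.1). CPM were scaled over all 12 libraries, and log2 CPM used a prior count of 2. KO and WT were compared within each tissue on 6 libraries without pairing, and tissue and the difference between tissues on 12. DESeq2 1.42.0 was an alternative. Scripts were tested on simulated data.

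Gene symbols and lengths came from GENCODE vM21, and promoters from RefSeq. The members and lists were chosen with earlier results of these data known. All 9 members are named; of other pathway genes at most 3 per direction with the smallest p, plus receptors, ligands and Ifit3b, and the 10 genes most like the members. Liver and brain of a letter come from 1 animal by the labels, so they are paired. Deviations from the group means correlated across genes at -0.0318, -0.0387, -0.0106, 0.121, 0.140 and 0.141 for mice A to F. These values are low and were not set beside mismatched mice, so they cannot check the pairing, which rests on the labels. Correlations over mice used exact permutation of the 720 pairings, two-sided. Alternatives were other scaling (RLE), no filter, 1 fit over all libraries, the replicate block, a Y-linked covariate and leaving out each mouse. Counts of 14403309 to 21623180 per library leave brain members at 0 to 204 counts, and intervals or limits from counts cover counting error only.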

Additional observations from a re-analysis of the deposited data

How the results depend on the processing

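The liver-over-brain direction held for the 6 genes that passed the filter in both tissues under every alternative run. All 6 were called with the replicate block (paired by mouse; largest adjusted p 0.0261), with DESeq2, with RLE scaling, with no filter and with the Y-linked covariate, but 5 of 6 without mouse F and without mice E and F, where Ifit3 was lost. RLE moved the median of all genes from -0.22 to -0.32. Without a filter on low counts 1 of 9 genes (Ifit1) was called in KO liver. The replicate block changed no call among the 6 genes. Isg15, Ifi44 and Bst2 passed the filter only through liver and were not tested between tissues. Genes called in KO liver numbered 0 in the main fit, 171 with DESeq2, 443 with no filter, 82 with a Y-linked covariate and 29 without mice E and F, an alternative chosen after seeing the data. In KO brain they numbered 11, 269 with DESeq2 and 1000 with no filter, and for the difference between tissues 0, 369 with DESeq2, 183 with no filter and 68 with the replicate block.

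Mettl5 passed the threshold in liver with DESeq2 (-1.44), no filter (-1.43), the Y-linked covariate (-1.43) and without mouse D (-1.59, adjusted p = 0.0848), and its log2 fold change ran from -1.59 to -1.10 when each mouse was left out. In brain it passed with no filter (-0.86) and ran from -0.999 to -0.55. Signs turned, never past the threshold, in these cases (ranges are over leaving out each mouse). Oasl2 in liver gave 0.09 without C, 0.14 without D and 0.09 without E (range -0.45 to 0.14). Ifit1 in brain gave -0.13 without F (range to 0.47) and -0.12 without E and F. Rsad2 in brain gave 0.17 without A and 0.77 without D (range from -0.46). For the difference between tissues, Ifit3 gave 0.05 without A, 0.14 without C and 0.10 without E (range from -0.70). The causes were not tested. Low brain counts limit every brain value.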
